A study of Mus musculus with 25 samples.

Results

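The 10 genes described here mark dentate granule neurons in the mouse brain: Prox1, C1ql2, C1ql3, Dsp, Calb1, Lct, Plk5, Trpc6, Stxbp6 and Pdzd2. They were listed by name as markers of that cell type. The members, and the other gene lists below, were chosen with earlier results of these data known. Their Entrez gene IDs were matched to mouse symbols, which found all 10 members among the 36528 genes counted. Each was followed as a read count in 25 libraries of sorted brain cells. The 6 P301S neuron and 5 P301S astrocyte libraries came from mice that carried hMAPT-P301S, a human tau transgene with the P301S substitution of familial frontotemporal dementia. The 8 non-Tg neuron and 6 non-Tg astrocyte libraries came from littermates without the transgene. All animals were 6 months old, and cells were sorted by NeuN for neurons and by Gfap for astrocytes. The labels name no promoter for the transgene, no strain and no brain region, and how many mice went into each library is not stated in them. The p-values below therefore describe the spread between libraries, part of which may be technical. Libraries are numbered within a group only to name them.

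Dentate granule neurons are the principal cells of the dentate gyrus, the entry gate of the hippocampal circuit. Their axons, the mossy fibres, form large excitatory synapses on CA3 pyramidal cells, and the zinc, calcium buffers and secreted synaptic organisers of these neurons are used to tell them from other excitatory cells. Granule neurons keep being born in the adult mouse. Several of the genes are also made elsewhere in the mouse brain: Prox1 by interneurons from the caudal ganglionic eminence, and Calb1 by CA1 pyramidal cells, Purkinje cells and interneurons. In bulk samples fewer cells of a type and less RNA per cell cannot be told apart.

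Total counts per library ran from 1245964 to 4453555, so that 3 counts, taken as the floor of detection, amounted to between 0.674 and 2.41 CPM (counts per 1000000 of a library's total). Levels below are CPM after TMM scaling over all 25 libraries. The sort followed its label: Rbfox3, which encodes NeuN, averaged 69.2 ± 13.5 CPM in P301S neurons and 72.7 ± 22.3 CPM in non-Tg neurons (SD, n = 6 and 8), against 4.11 ± 4.23 CPM in P301S astrocytes and 5.10 ± 4.0 CPM in non-Tg astrocytes (SD, n = 5 and 6). Gfap averaged 953 ± 163 CPM in P301S astrocytes and 202 ± 105 CPM in non-Tg astrocytes. Non-Tg neuron libraries 5 and 8 carry sample identifiers of another range than the rest, and both stood apart in the members, in opposite ways. The members' fold changes, coefficients of variation and pairwise correlations in neurons are given with all libraries and without these 2. P301S astrocyte library 4 had the fewest genes detected of all libraries at a depth of 1000000 counts, 11940, and its 10 members summed to 62.7 CPM, the lowest sum of the series.

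In sorted neurons the members were led by the synaptic organiser C1ql3. On the authors' length-normalized scale (nRPKM), which alone allows genes to be ranked, C1ql3 was at 6.82 ± 1.86 in P301S neurons and 13.8 ± 4.82 in non-Tg neurons. Trpc6 came next at 4.49 ± 0.84 in P301S neurons and 5.81 ± 1.68 in non-Tg neurons, then Prox1 at 3.02 ± 0.43 nRPKM in P301S neurons and 3.43 ± 0.81 nRPKM in non-Tg neurons. Stxbp6, at 1.75 ± 0.39 nRPKM, ranked below Calb1, at 2.63 ± 0.70 nRPKM, in P301S neurons, and above it in non-Tg neurons, at 3.32 ± 0.93 and 2.74 ± 0.76 nRPKM. Dsp, C1ql2 and Plk5 lay near or below 1 nRPKM in both genotypes. Pdzd2 and Lct closed the order, with Lct at 0.45 ± 0.09 nRPKM in P301S neurons and 0.42 ± 0.16 nRPKM in non-Tg neurons. The libraries of each member overlapped those of its neighbour in this order in both genotypes. Within a genotype the coefficient of variation of the CPM level ran from 14.4% for Prox1 to 31.0% for Plk5 in P301S neurons, and from 23.5% for Prox1 to 43.5% for Plk5 in non-Tg neurons. Without non-Tg libraries 5 and 8 the non-Tg coefficients ran from 12.3% for Prox1 to 31.9% for Pdzd2, with Plk5 at 26.3%.

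Between genotypes in neurons, no member passed the test, and 4 of 10 were lower in P301S at an unadjusted p under 0.05: Stxbp6, C1ql3, Plk5 and C1ql2. At a Benjamini-Hochberg adjusted p under 0.05 in edgeR's quasi-likelihood test, 0 of 10 members were called, against 0.00913% of all 10951 genes tested (1 gene, higher in P301S). At an unadjusted p under 0.05, 4.68% of all genes were lower and 7.73% differed in either direction. DESeq2 and limma voom each called 2 of the 10 members lower, C1ql3 and Stxbp6. The log2 fold change, P301S over non-Tg, was below 0 for 8 of 10 members and for 53.8% of all genes. Its median was -0.26 over the members and -0.02 over all genes. Because the members were chosen with earlier results of these data known, these contrasts with all genes are descriptions only. The 2 genotypes overlapped for every member, while 0.21% of all genes had groups that did not overlap. Summed over the 10 members, the level was 519, 655 and 704 CPM (lowest, median and highest) in P301S neurons and 704, 873 and 1007 CPM in non-Tg neurons.

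**Figure D1:**
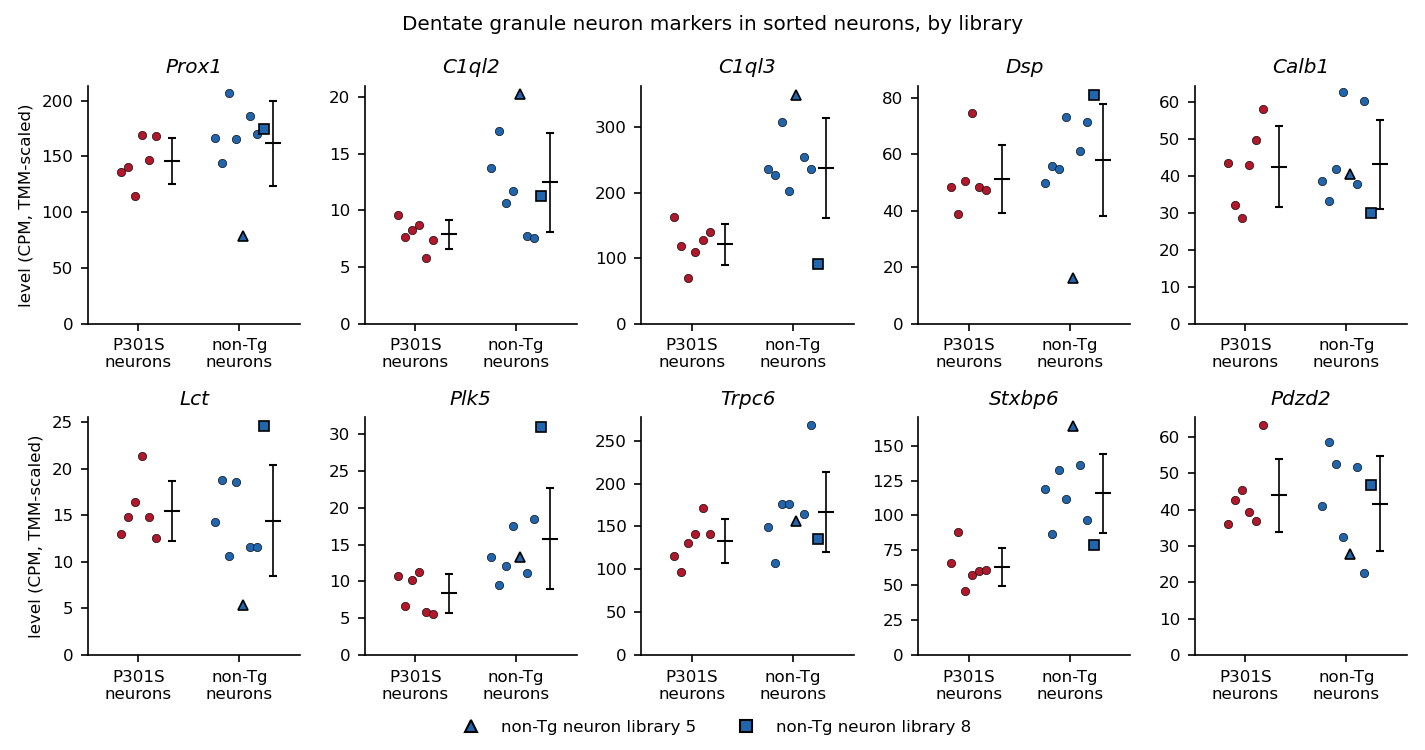
Level of each member (vertical axes, TMM-scaled CPM, starting at 0) in 6 P301S neuron libraries (red, left) and 8 non-Tg neuron libraries (blue, right); each point is a library, bars are mean ± SD, and the triangle and square mark non-Tg libraries 5 and 8. C1ql3 lies at or under 162 CPM in every P301S library and at or above 203 CPM in every non-Tg library but number 8, and Stxbp6 lies lower in P301S with a small overlap.

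C1ql3 (Entrez ID 227580, chr2:13001887-13010864, minus strand, GRCm38) encodes a secreted C1q-like protein that granule neurons release at mossy fibre synapses, where it helps to recruit kainate receptors. It was at 69.2, 123 and 162 CPM (lowest, median and highest of 6) in P301S neurons and at 90.8, 236 and 349 CPM (of 8) in non-Tg neurons. All 6 P301S libraries lay below 7 of the 8 non-Tg libraries, of which library 8 was the low one at 90.8 CPM and the next lowest was at 203 CPM. The mean was 121 ± 31.5 CPM in P301S neurons and 238 ± 76.2 CPM in non-Tg neurons, a log2 fold change of -0.98 (SE 0.23, adjusted p = 0.200). This p ranked 23 among the 10951 genes. Without non-Tg library 8 the log2 fold change was -1.10 with an adjusted p of 0.0101, and without libraries 5 and 8 it was -1.0 with an adjusted p of 0.00646. DESeq2 gave an adjusted p of 0.0279 and limma voom 0.00732 with all libraries.

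Stxbp6 (217517, chr12:44852484-45075118, minus strand) encodes amisyn, a syntaxin-binding protein that regulates SNARE-mediated release. Its level was 46.0, 60.4 and 87.9 CPM in P301S neurons and 78.6, 116 and 164 CPM in non-Tg neurons. One P301S library, number 2 at 87.9 CPM, lay above the lowest non-Tg libraries, number 8 at 78.6 CPM and number 2 at 87.0 CPM, and the other P301S libraries lay below all 8. Its log2 fold change was -0.88 (SE 0.18, adjusted p = 0.121), which ranked 9 by p among all genes. The adjusted p was 0.00569 in DESeq2, 0.00732 in limma voom and 0.00855 with no filter on low counts. Without non-Tg library 8 it was 0.0273, and without libraries 5 and 8 it was 0.0189. C1ql3 was therefore called lower in P301S neurons under 4 of the 25 alternatives tried, and Stxbp6 under 5, all given above. C1ql3 was not called under the remaining 21, nor Stxbp6 under the remaining 20. Neither was called under the setting used for the other values. The 250 bases before a RefSeq start of each gene are shown (GRCm38.p6, minus strand). They are chr2:13010865-13011114 for C1ql3 and chr12:45074484-45074733 for Stxbp6. The Stxbp6 window lies inside the span of the gene given above, so it does not precede the gene's outermost start. These members were taken because they had the smallest p and varied together between libraries. Capitals mark CpG dinucleotides.

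C1ql3: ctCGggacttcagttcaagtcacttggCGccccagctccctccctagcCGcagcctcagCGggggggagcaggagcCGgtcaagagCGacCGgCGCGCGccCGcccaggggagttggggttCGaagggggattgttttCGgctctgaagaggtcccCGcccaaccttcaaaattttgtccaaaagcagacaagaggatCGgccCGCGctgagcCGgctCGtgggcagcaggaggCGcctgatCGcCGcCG
Stxbp6: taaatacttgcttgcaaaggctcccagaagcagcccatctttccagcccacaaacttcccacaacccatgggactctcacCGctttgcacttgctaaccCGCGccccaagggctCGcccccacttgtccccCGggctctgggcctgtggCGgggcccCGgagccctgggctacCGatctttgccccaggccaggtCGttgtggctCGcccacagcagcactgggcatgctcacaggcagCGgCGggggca

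C1ql3 had 23 CpG in its window and Stxbp6 12, against a median of 6 over 32851 RefSeq windows of this length. At least as many CpG as in C1ql3 were found in 13.3% of these windows, and at least as many as in Stxbp6 in 33.5%. Neither window held the E-boxes CAGATG or CAGCTG, the cyclic AMP element TGACGTCA or the TATA box TATAAA, searched on both strands. Of the 9 members with a window, Prox1 alone held a match, 1 to CAGATG and 1 to TATAAA that do not overlap. CAGATG occurred in 14.4% of all windows, CAGCTG in 13%, TGACGTCA in 1.55% and TATAAA in 12.4%.

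Plk5 (216166, chr10:80356459-80365489, plus strand), a polo-like kinase family member found in neurons that no longer divide, was at 5.64, 8.43 and 11.3 CPM in P301S neurons and at 9.52, 13.3 and 31.0 CPM in non-Tg neurons. The highest non-Tg value was that of library 8, and 2 non-Tg libraries lay below the highest P301S one. Its log2 fold change was -0.95 (SE 0.29, adjusted p = 0.361). C1ql2 (226359, chr1:120340582-120343174, plus strand), the close relative of C1ql3 that acts at the same synapse, was at 5.83, 7.94 and 9.59 CPM in P301S neurons and at 7.54, 11.5 and 20.3 CPM in non-Tg neurons. Library 5 was the highest non-Tg one, and again 2 non-Tg libraries lay below the P301S maximum. The log2 fold change of C1ql2 was -0.69 (SE 0.24, adjusted p = 0.484). C1ql2 and C1ql3 shared no stretch of 50 bases in their annotated transcripts, so reads of that length would not be split between them. All 6 P301S libraries lay below the non-Tg mean for Stxbp6, C1ql3, Plk5 and C1ql2 alike.

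Trpc6 (22068, chr9:8543867-8680752, plus strand), a diacylglycerol-gated cation channel, was at 97.4, 136 and 172 CPM in P301S neurons and at 107, 161 and 269 CPM in non-Tg neurons. Non-Tg library 7 alone reached 269 CPM, and the ranges otherwise overlapped, with a log2 fold change of -0.34 (SE 0.18, adjusted p = 0.687). Prox1 (19130, chr1:190118035-190170827, minus strand), the homeobox factor that sets granule neuron identity, was at 114, 144 and 170 CPM in P301S neurons and at 79.0, 168 and 207 CPM in non-Tg neurons. The lowest value was that of non-Tg library 5, and the other 7 non-Tg libraries were at 144 CPM or more. Its log2 fold change was -0.15 (SE 0.16, adjusted p = 0.864). The SE of Prox1 was smaller than those of C1ql3 and Stxbp6, and the difference between their fold changes was not tested.

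Dsp (109620, chr13:38151294-38198577, plus strand) encodes desmoplakin, which links desmosomes to intermediate filaments in epithelia. Its level was 38.7, 48.5 and 74.5 CPM in P301S neurons and 16, 58.5 and 80.9 CPM in non-Tg neurons, with library 5 the lowest and library 8 the highest. The P301S range lay within the non-Tg range, and the log2 fold change was -0.18 (SE 0.24, adjusted p = 0.895). Calb1 (12307, chr4:15881264-15906709, plus strand), the calcium buffer calbindin, was at 28.6, 43.1 and 58.1 CPM in P301S neurons and at 29.9, 39.5 and 62.6 CPM in non-Tg neurons, nearly the same span, with a log2 fold change of -0.02 (SE 0.20, adjusted p = 0.989). Lct (226413, chr1:128284756-128328318, minus strand) encodes lactase, best known from the intestinal brush border, and was at 12.6, 14.8 and 21.4 CPM in P301S neurons and at 5.34, 13 and 24.6 CPM in non-Tg neurons. Both ends of the non-Tg range again came from libraries 5 and 8, and the log2 fold change was 0.06 (SE 0.25, adjusted p = 0.974). Pdzd2 (68070, chr15:12359711-12739968, minus strand), a scaffold protein with many PDZ domains, was at 36.1, 40.9 and 63.3 CPM in P301S neurons and at 22.6, 43.8 and 58.7 CPM in non-Tg neurons. Library 6 was the high one in P301S, and the log2 fold change was 0.06 (SE 0.20, adjusted p = 0.963). Without non-Tg libraries 5 and 8 the log2 fold change was -0.67 for Plk5, -0.57 for C1ql2, -0.38 for Trpc6, -0.24 for Prox1, -0.23 for Dsp, -0.08 for Calb1, 0.11 for Lct and 0.02 for Pdzd2, and none of these 8 members was called. Exons of Prox1, C1ql3 and Dsp overlap annotated genes on the opposite strand (Prox1os, Gm37824 and Gm37811, and Gm10129), and whether reads were counted by strand is not given in the sources used here, so reads of these pairs cannot be told apart.

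**Figure D2:**
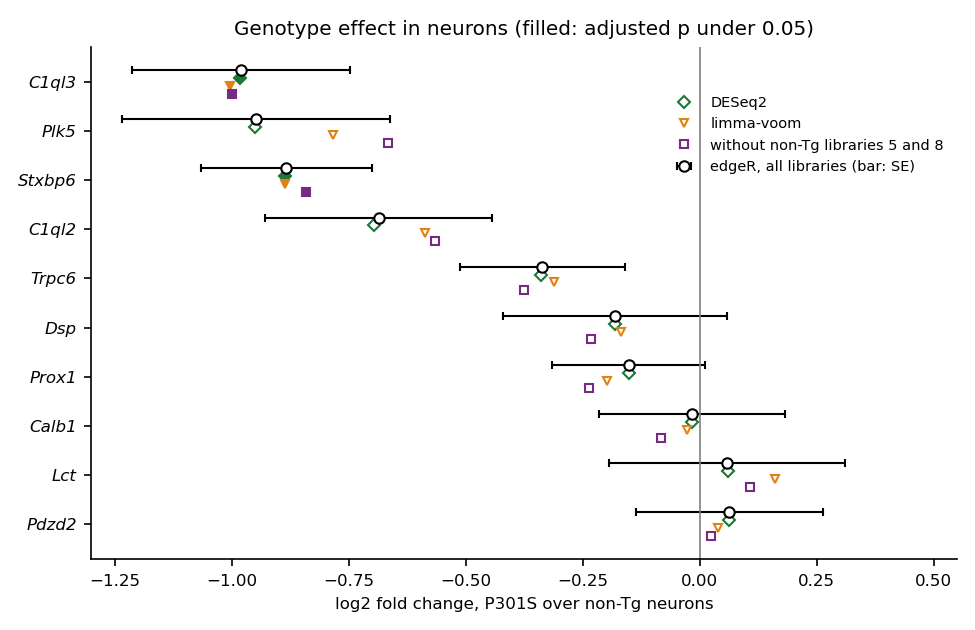
Log2 fold change of each member, P301S over non-Tg neurons (horizontal axis), from edgeR with all 14 libraries (circle, bar ± SE) and from DESeq2, limma voom and edgeR without non-Tg libraries 5 and 8; filled symbols have an adjusted p under 0.05. C1ql3 and Stxbp6 carry filled symbols in the 3 alternatives shown and open circles in edgeR with all libraries. All 4 estimates of each member lie on the same side of 0. Of the 25 alternatives run, 4 called C1ql3 and 5 called Stxbp6.

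The members did not vary as 1 block between neuron libraries. Pearson r was computed for the 45 pairs of members over the 14 neuron libraries, on log2(CPM + 1) as deviations from the mean of each genotype; these are descriptions, and all members of a library share its depth and cell mixture. The median r was -0.02, with 5 pairs above 0.5 and 9 below -0.5, and over the 12 libraries without non-Tg 5 and 8 it was -0.03, with 7 pairs above 0.5 and 4 below -0.5. Dsp went with Lct (r = 0.83) and with Prox1 (0.82), C1ql3 with Stxbp6 (0.73) and Calb1 with Trpc6 (0.71). C1ql3 ran against Lct (-0.76) and Plk5 (-0.65), and Stxbp6 against Lct (-0.72) and Dsp (-0.66).

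Non-Tg libraries 5 and 8 lay at opposite ends of these relations. Library 5 had the highest C1ql3 (349 CPM), Stxbp6 (164 CPM) and C1ql2 (20.3 CPM) of the non-Tg neurons and the lowest Prox1 (79.0 CPM), Dsp (16 CPM) and Lct (5.34 CPM). Library 8 had the lowest C1ql3 (90.8 CPM), Stxbp6 (78.6 CPM) and Calb1 (29.9 CPM) and the highest Dsp (80.9 CPM), Lct (24.6 CPM) and Plk5 (31.0 CPM). Without both, over 12 libraries, r was 0.45 for Dsp and Lct, 0.22 for Prox1 and Dsp, 0.56 for C1ql3 and Stxbp6 and 0.69 for Calb1 and Trpc6. The negative relations were at -0.57 for C1ql3 and Lct, -0.32 for C1ql3 and Plk5, -0.45 for Stxbp6 and Lct and -0.42 for Stxbp6 and Dsp over these 12. The relation of Prox1 to C1ql3 changed sign, with r = -0.16 over 14 libraries and 0.61 over 12. Dsp and Lct, both lowest in library 5 and highest in library 8 among the non-Tg neurons, differ in the 250 bases before their starts (chr13:38151044-38151293, plus strand, and chr1:128328319-128328568, minus strand; GRCm38.p6), shown with CpG in capitals.

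Dsp: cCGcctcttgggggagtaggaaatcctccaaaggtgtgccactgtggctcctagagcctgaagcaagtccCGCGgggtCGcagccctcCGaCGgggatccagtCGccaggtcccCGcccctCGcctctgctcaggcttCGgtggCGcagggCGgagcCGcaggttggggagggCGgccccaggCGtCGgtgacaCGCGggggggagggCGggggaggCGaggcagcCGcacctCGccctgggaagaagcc
Lct: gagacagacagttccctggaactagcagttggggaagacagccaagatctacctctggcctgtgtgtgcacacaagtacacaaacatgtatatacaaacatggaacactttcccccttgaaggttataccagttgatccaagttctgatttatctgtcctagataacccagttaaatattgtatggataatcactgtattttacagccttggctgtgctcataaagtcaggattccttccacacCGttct

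The Dsp window held 22 CpG at 72.4% GC and the Lct window 1 CpG at 42.8% GC, against medians of 6 CpG and 52.4% GC over all windows. Of all windows, 18.8% had no more CpG than Lct, and 14.8% had at least as many as Dsp.

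**Figure D3:**
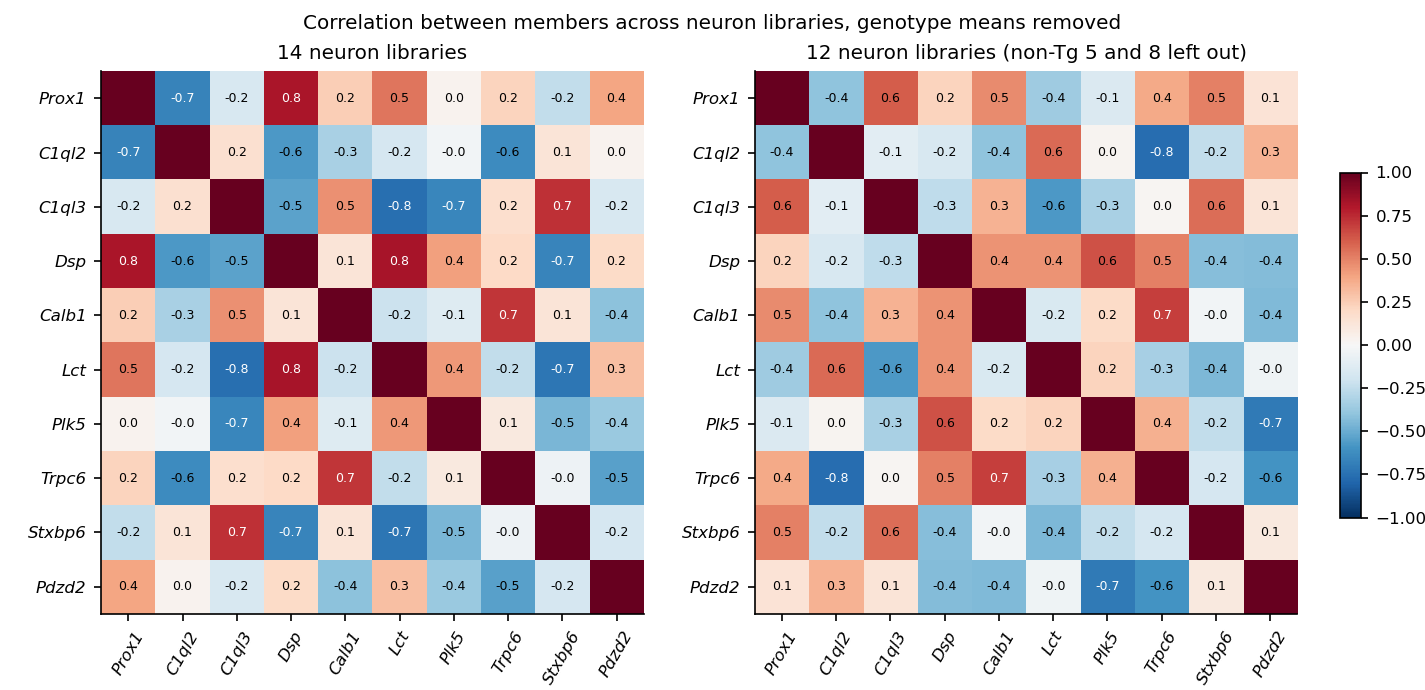
Pearson r between each pair of members across neuron libraries, on log2(CPM + 1) with the genotype means removed (colour and printed value; rows and columns are members), for 14 libraries at left and for 12 at right, without non-Tg libraries 5 and 8. The pairs Prox1 with Dsp and Dsp with Lct fade at right, at 0.22 and 0.45, while Calb1 with Trpc6 stays at 0.69.

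The 5 genes outside the list that varied most like the mean of the members over the 14 neuron libraries were Zswim5 (r = 0.93), Zfc3h1 (0.85), Cecr2 (0.84), Slc4a4 (0.83) and Cdkal1 (0.82). Cecr2 encodes a bromodomain protein, Slc4a4 a sodium bicarbonate cotransporter that is abundant in astrocytes, and Cdkal1 a tRNA-modifying enzyme. Over 12 libraries without non-Tg 5 and 8 the r of the 5 genes was 0.90, 0.82, 0.71, 0.73 and 0.71 in the same order. The members themselves followed their mean unevenly over the 14 libraries. Prox1 had r = 0.82, Dsp 0.68, Calb1 0.60, Lct 0.37 and Trpc6 0.35. Plk5 had 0.13, Pdzd2 0.10, C1ql3 0.094, Stxbp6 -0.12 and C1ql2 -0.40.

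Other granule neuron genes had mostly negative fold changes too, and inhibitory neuron genes positive ones, with no call on either side. Of 11 other granule genes, 9 were tested in neurons and 0 were called; 8 were below 0 and 3 had an unadjusted p under 0.05, all 3 lower, with a median log2 fold change of -0.24. The 9 tested genes ran from -1.61 to 0.087. The first 3 of the list that were tested were Dock10, a guanine nucleotide exchange factor, Fam163b, and the transcription factor Rfx3. They had -0.23 (SE 0.14), -0.11 (SE 0.21) and -0.32 (SE 0.13). Of 6 genes of immature granule neurons, 3 were tested, 1 was below 0 and 0 were called. Of 7 CA3 pyramidal genes, 5 were tested, 0 were called and 4 were below 0, with a median of -0.27. Among them the kainate receptor subunit Grik4 had -0.13 (SE 0.28), the adhesion protein Nectin3 -0.27 (SE 0.21) and the copine Cpne4 0.03 (SE 0.14). The 4 CA1 genes tested had a median of 0.17, and 8 cortical excitatory genes one of 0.14, with 2 of the 8 below 0. At an unadjusted p under 0.05, 1 immature granule gene, 1 CA3 gene and 2 cortical excitatory genes were lower. No CA1 gene was lower at that p, and 0 genes of these lists were higher.

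All 6 inhibitory neuron genes tested, of 9 listed, were above 0, with a median of 0.53; 0 were called and 2 had an unadjusted p under 0.05. Gad1 and Gad2, the enzymes of GABA synthesis, had 0.30 (SE 0.20) and 0.64 (SE 0.21), and the peptide gene Sst had 0.57 (SE 0.32). The summed level of the 9 genes was 136, 166 and 261 CPM in P301S neurons and 89.1, 127 and 164 CPM in non-Tg neurons. With the mean level of inhibitory genes as a covariate, C1ql3, C1ql2 and Stxbp6 had log2 fold changes of -1.10, -0.98 and -0.94, Plk5 had -0.37 and Trpc6 had -0.052. Lct, Dsp, Calb1 and Prox1 were at 0.26, 0.16, 0.083 and 0.040 in that fit and Pdzd2 at -0.21, and none of the 10 members was called. Glial genes also had mostly positive fold changes in P301S neurons: 8 of 9 astrocyte genes and 7 of 7 microglial genes tested were above 0, with medians of 0.57 and 0.77, and 0 were called. The summed level of 12 astrocyte genes was 493 to 752 CPM in P301S neurons and 361 to 716 CPM in non-Tg neurons, and that of 9 microglial genes was 82.8 to 394 CPM in P301S neurons and 30.6 to 179 CPM in non-Tg neurons. The 394 CPM were those of P301S library 1 alone, and the other 5 P301S libraries were at 82.8 to 133 CPM, within the non-Tg range. No astrocyte or microglial gene was at 0 in all libraries of either neuron group; of the oligodendrocyte lineage, Opalin and Olig1 were at 0 in all non-Tg neuron libraries. The part of these cells in the members' values was not tested, beyond the covariates given here and among the processing alternatives.

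The C1q-like and cerebellin family and its synaptic partners were followed in a list of 13 genes, which includes the members C1ql2 and C1ql3. Of these, 7 passed the filter in neurons and 0 were called. Among the 7, 4 were below 0, both members included, and 3 were above 0. Its 3 genes with an unadjusted p under 0.05, all lower, included both members, and the median was -0.13. It holds the adhesion receptor Adgrb3, kainate and delta glutamate receptor subunits and a neurexin, while the remaining C1q-like and cerebellin genes had too few counts to be tested.

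In astrocytes, 1 member rose in P301S: Pdzd2. Of the 10 members, 5 passed the filter on low counts in astrocytes (Prox1, C1ql3, Dsp, Stxbp6 and Pdzd2), and 1 of these 5 was called, against 0.519% of 12130 genes called higher and 0.544% called in either direction. Pdzd2 was at 55.5, 87.9, 58.3, 24.2 and 184 CPM in P301S astrocyte libraries 1 to 5 and at 4.43, 15.7 and 24.8 CPM (lowest, median and highest of 6) in non-Tg astrocytes. The 5 P301S libraries all lay above the non-Tg mean, and the groups touched only where P301S library 4, at 24.2 CPM, lay under non-Tg library 5, at 24.8 CPM. The mean was 82.0 ± 61.5 CPM in P301S astrocytes and 15.3 ± 6.89 CPM in non-Tg astrocytes, a log2 fold change of 2.39 (SE 0.52, adjusted p = 0.0349).

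The call of Pdzd2 rested on small margins. Without P301S library 5 the log2 fold change was 1.87 with an adjusted p of 0.109. Without non-Tg library 1, 2, 3, 4 or 6 the adjusted p was 0.0817, 0.0971, 0.0985, 0.0670 or 0.105, with log2 fold changes of 2.20 to 2.46. With the number of genes detected as a covariate it was 0.953, with oligodendrocyte and microglial genes 0.464, and with a sex marker term 0.124, while the log2 fold change stayed at 2.64 to 3.06. DESeq2 gave an adjusted p of 0.000398 and limma voom 0.00629.

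Genes of the oligodendrocyte lineage had mostly positive fold changes between the same libraries, and none of those tested was called. Of 6 oligodendrocyte precursor genes, 4 were tested, 3 were above 0 and 0 were called, with a median log2 fold change of 1.35, against 0.13 over all genes. Their summed level was 304, 319, 512, 41.5 and 233 CPM in P301S astrocyte libraries 1 to 5 and 82.4, 91.1 and 162 CPM in non-Tg astrocytes. That of 9 oligodendrocyte genes was 388, 530, 1302, 1072 and 646 CPM in P301S libraries 1 to 5 and 202, 345 and 532 CPM in non-Tg astrocytes; of its 7 tested genes 6 were above 0 and 0 were called. Among the precursor markers Pdgfra was at 1.12, 3.02 and 59.4 CPM in P301S astrocytes and Gpr17 was at 0 in 3 of the 5 libraries. P301S library 5, with the most Pdzd2, had the highest sum of neither list. Library 4, with the least Pdzd2 in P301S, had the lowest precursor sum. P301S astrocyte libraries also detected fewer genes at equal depth, 14021 ± 1617 against 16698 ± 1043 in non-Tg astrocytes, and held more mitochondrial counts, 7.72% ± 2.86 in P301S and 4.04% ± 1.52 in non-Tg. The part of these in the level of Pdzd2 was not tested beyond the covariates above.

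**Figure D4:**
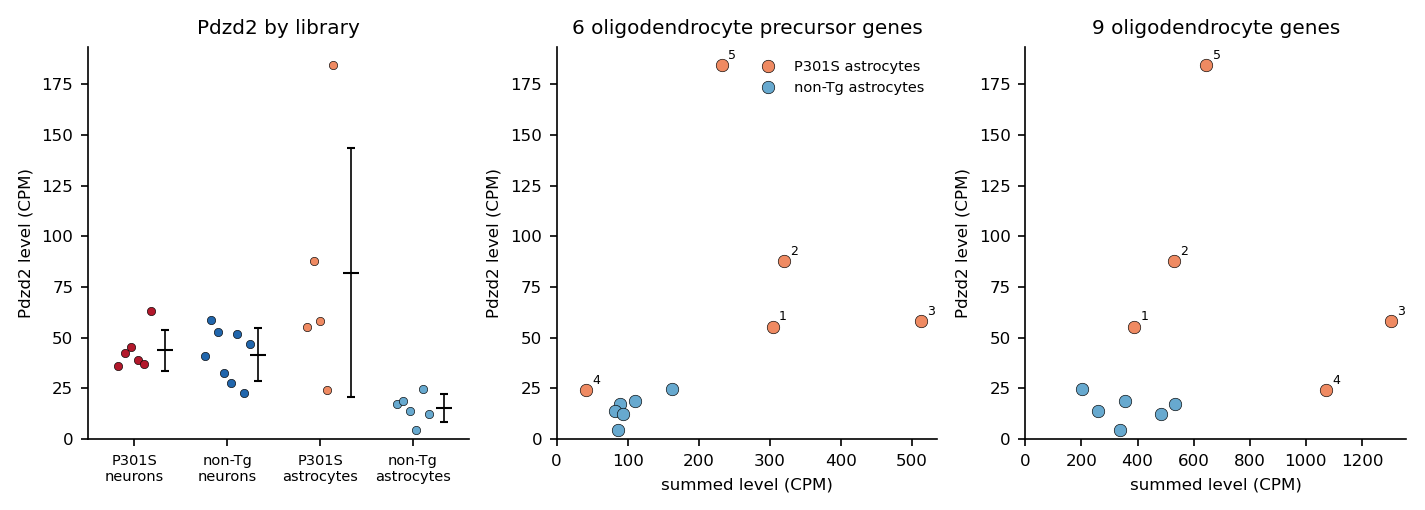
Level of Pdzd2 (CPM) in each library of the 4 groups (left; bars are mean ± SD), and against the summed level of 6 oligodendrocyte precursor genes (middle) and 9 oligodendrocyte genes (right) in astrocyte libraries, with numbers naming the P301S libraries. P301S astrocytes reach 184 CPM in library 5, which is not the highest library on either horizontal axis.

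The 4 other members tested in astrocytes had log2 fold changes below 0 and none was called: Prox1 -0.69 (SE 0.41, adjusted p = 0.471), Stxbp6 -0.53 (SE 0.60, adjusted p = 0.735), C1ql3 -0.47 (SE 0.79, adjusted p = 0.833) and Dsp -1.0 (SE 1.09, adjusted p = 0.725). With 1 library left out Dsp ran from -2.48 without P301S library 3 to -0.29 without non-Tg library 4, C1ql3 from -1.17 without P301S library 2 to -0.20 without P301S library 3, and Stxbp6 from -1.01 without P301S library 3 to -0.23 without P301S library 4. Dsp was at -4.66 with oligodendrocyte and microglial covariates and at -3.74 with the sex marker term. Prox1 was at 44.8, 19.5, 44.1, 28.7 and 56.8 CPM in P301S astrocytes 1 to 5 and at 30.8, 63.0 and 94.1 CPM in non-Tg astrocytes, so that all 5 P301S libraries lay below the non-Tg mean with overlap. Stxbp6 was uneven in P301S astrocytes, at 35.5, 34.0, 59.0, 1.51 and 7.11 CPM, and even in non-Tg astrocytes, at 29.9, 40.0 and 47.0 CPM. C1ql2, Calb1, Lct, Plk5 and Trpc6 did not pass the filter: over the 11 astrocyte libraries their highest counts were 21, 12, 10, 3 and 10.

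Against astrocytes, the members stood high in neurons of both genotypes. In P301S, 9 of 10 members were called higher in neurons, against 23.2% of 14197 genes, and 1 was called lower, Pdzd2, against 29% of genes. In non-Tg, 10 of 10 were called higher, against 21.8% of genes. In P301S the neuron libraries lay above all astrocyte libraries for 8 of 10 members, against 17% of all genes, with Stxbp6 and Pdzd2 overlapping. In non-Tg this held for 7 of 10, against 15.7%, with Prox1, Dsp and Pdzd2 overlapping by 1 astrocyte library each. The median log2 difference, neurons over astrocytes, was 4.17 over the members in P301S and 3.41 in non-Tg, against -0.21 in P301S and -0.11 in non-Tg over all genes.

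Trpc6, abundant in neurons, lay close to the floor in astrocytes of both genotypes. It was at 133 ± 25.3 CPM in P301S neurons and 1.43 ± 1.41 CPM in P301S astrocytes, and at 167 ± 47.0 CPM in non-Tg neurons and 1.24 ± 1.09 CPM in non-Tg astrocytes. The log2 differences were 6.42 (SE 0.53, adjusted p = 9.2e-12) in P301S and 6.95 (SE 0.49, adjusted p = 1.58e-13) in non-Tg. C1ql3 had 3.99 (SE 0.48) in P301S and 4.52 (SE 0.44) in non-Tg, and Calb1 4.96 (SE 0.67) in P301S and 4.53 (SE 0.58) in non-Tg. Plk5 and Lct were at or near the floor in astrocytes: in P301S 3 counts of Plk5 and 3 of Lct were found over 5 astrocyte libraries, against 111 and 209 counts over 6 neuron libraries. The pooled ratio in P301S was 37.5 for Plk5 (95% exact interval 12.5 to 185, counting error only) and 70.6 for Lct (23.8 to 345). All 3 Plk5 counts came from P301S astrocyte library 1, and members this close to the floor were not ranked against Trpc6.

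Prox1 and Stxbp6 had the smallest differences among the 9 members that were higher in neurons of both genotypes. Dsp had a log2 difference of 3.30 (SE 0.73, adjusted p = 0.000289) in P301S and 2.55 (SE 0.63, adjusted p = 0.000982) in non-Tg. C1ql2 had 4.34 (SE 0.89) in P301S and 2.89 (SE 0.68) in non-Tg, values that rest on single astrocyte libraries. All 5 P301S astrocyte counts of C1ql2 were in library 1, and 21 of its 30 non-Tg astrocyte counts in library 5, without which the non-Tg difference was 4.13. Without P301S astrocyte library 1 the fitted difference of C1ql2 was 7.31, against astrocyte libraries that were then all at 0, so that it is no measured size. Prox1 had 1.91 (SE 0.28, adjusted p = 1.11e-06) in P301S and 1.38 (SE 0.25, adjusted p = 2.06e-05) in non-Tg. Stxbp6 had 1.18 (SE 0.42, adjusted p = 0.0185) in P301S, where the adjusted p was 0.0501 without astrocyte library 5 and 0.134 in a fit of P301S libraries alone, and 1.55 (SE 0.38, adjusted p = 0.000944) in non-Tg. As a share of the neuron mean, the astrocyte mean of a member had a median of 4.86% in P301S and 9.25% in non-Tg, with Trpc6 at 1.08% in P301S and 0.745% in non-Tg, and Prox1 at 26.6% in P301S and 38.3% in non-Tg. For 14 general neuron markers that median was 29.0% in P301S and 21.5% in non-Tg, and the part of neuronal RNA in the members' astrocyte levels was not tested.

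**Figure D5:**
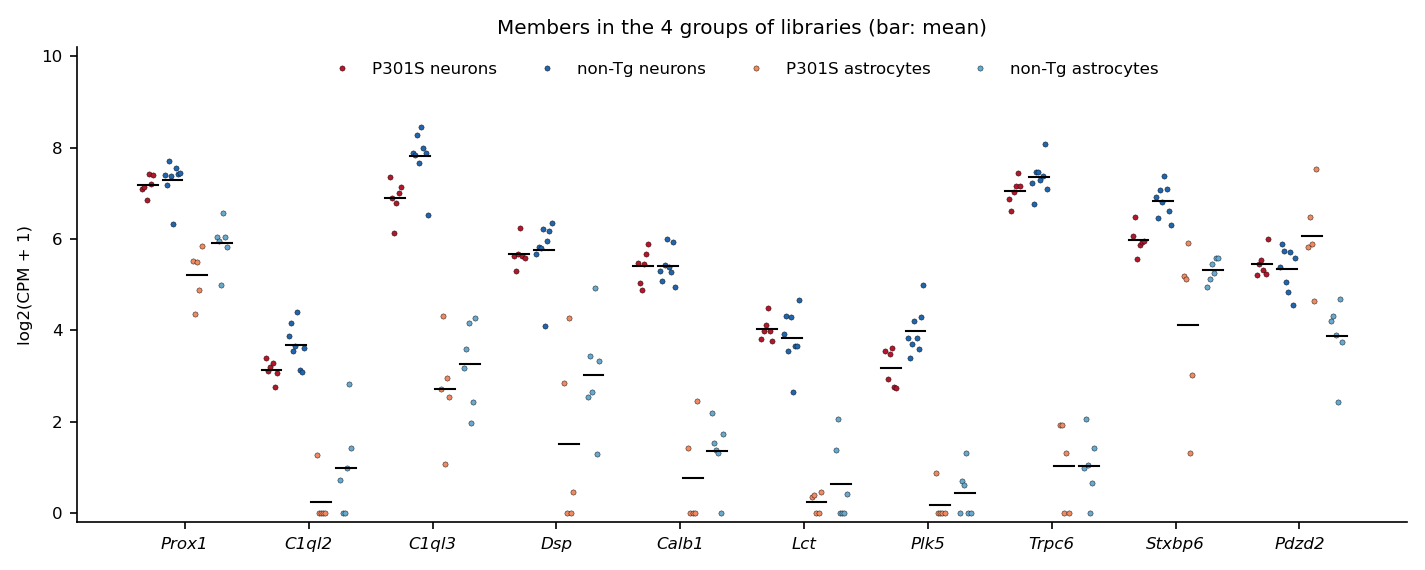
Each member on a log2(CPM + 1) scale (vertical axis) in P301S neurons, non-Tg neurons, P301S astrocytes and non-Tg astrocytes, left to right; points are libraries and bars means of the log values. Trpc6, Calb1, Lct and Plk5 sit near 0 in astrocytes of both genotypes, Prox1 and Stxbp6 stay well above 0 there, and Pdzd2 is the member whose P301S astrocyte mean exceeds its neuron means.

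Pdzd2 was the exception between cell types. In non-Tg it was at 41.7 ± 13 CPM in neurons and 15.3 ± 6.89 CPM in astrocytes, a log2 difference of 1.43 (SE 0.36, adjusted p = 0.00143). In P301S it was at 43.9 ± 10.1 CPM in neurons and 82.0 ± 61.5 CPM in astrocytes, a log2 difference of -0.90 (SE 0.38, adjusted p = 0.0479). That call in P301S was lost without astrocyte library 5, with -0.36 and an adjusted p of 0.417, and without astrocyte library 2 or any of neuron libraries 1 to 5, with adjusted p of 0.070 to 0.106. It was also lost under 6 other settings, with adjusted p of 0.0827 in DESeq2 and 0.149 in limma voom at the ends of the range.

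The genotype effect itself differed between cell types for 1 of the 10 members. The interaction of Pdzd2, neurons minus astrocytes, was a log2 difference of -2.34 (SE 0.53, adjusted p = 0.0449), against 0.204% of 14197 genes called in that direction. It remained between -2.55 and -1.80 when any 1 library was left out, but its adjusted p passed 0.05 for 16 of 25 libraries, with a highest value of 0.0828 without P301S neuron library 2. The libraries were P301S neurons 1 to 6, non-Tg neurons 1, 2, 3, 4, 6 and 8, P301S astrocyte 5 and non-Tg astrocytes 1, 3 and 6. The adjusted p was 0.00232 in DESeq2, 0.128 in limma voom and 0.0611 without non-Tg neuron libraries 5 and 8. The other 9 members were not called in this test; C1ql3 had -0.53 (SE 0.58, adjusted p = 0.724), Stxbp6 -0.37 (SE 0.55, adjusted p = 0.818), and Lct, the nearest, 1.94 (SE 1.01, adjusted p = 0.371).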

How the data were processed

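RNA from sorted neurons and astrocytes was sequenced in 25 libraries. Each deposited file gives a read count per Entrez gene ID, per the file headers reads aligned uniquely to a gene model, and the authors' size-factor-adjusted RPKM (nRPKM). Dividing these RPKM values by the counts left only a sample factor and a gene factor (largest relative deviation 3.46e-14), so counts were tested, and nRPKM served only to rank genes. GSNAP and GRCm38 were used, per the submitters' processing notes; the sources used here do not give versions, gene models or strand handling. Symbols came from RefSeq, without a match for 5479 IDs that held 3.30% of counts and stayed in all tests. No 2 libraries held identical values.

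Genotype was compared within each cell type, while cell types and the interaction were tested in a joint model of the 25 libraries in which each group has its own mean. The test was edgeR's quasi-likelihood F test (version 4.0.16 under R 4.3.3), after TMM scaling and filterByExpr, with robust dispersion estimates. Calls were made at an adjusted p (Benjamini-Hochberg, over every gene tested) under 0.05. The SE is the size of the log2 fold change divided by the square root of F. DESeq2 1.42.0, limma 3.58.1 (voom with quality weights), other filters and scaling, covariates and leaving out libraries were alternatives. The procedure was tested on simulated data. Floors of 3 counts and intervals cover counting error only, since reads that carry no molecular identifier need not be independent molecules. Members and lists were chosen with earlier results of these data known. All 10 members are named. Where other lists are described by gene, these are their first 3 genes tested. The 5 genes most like the mean of the members are also named, with predicted, unnamed, Xist and Y-linked genes left out. Promoter windows are RefSeq, GRCm38.p6, found for 9 members; exon overlap was read from GENCODE annotation of GRCm38. Microglia of the same experiment were not analysed here.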

Additional observations from a re-analysis of the deposited data

Results flagged for a closer look

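Of the 40 sets of values formed by 10 members in 4 groups, 8 held a library far from the others of its group. The rule was Dixon's ratio, the gap to the next library over the range of the group. In 2 of these all other libraries were at 0, so that any count sets the library apart. The rate of about 1 in 20 sets that chance gives holds for normally distributed values and does not apply to these 2. It need not hold for the 6 that remain, since the distribution of CPM values was not tested. In neurons, Trpc6 was at 269 CPM in non-Tg library 7 (other non-Tg libraries 107 to 177 CPM), Plk5 at 31.0 CPM in non-Tg library 8 (others 9.52 to 18.5 CPM), Dsp at 74.5 CPM in P301S library 4 (others 38.7 to 50.3 CPM) and Pdzd2 at 63.3 CPM in P301S library 6 (others 36.1 to 45.5 CPM). In astrocytes, Dsp was at 29.6 CPM in non-Tg library 4 (others 1.46 to 9.83 CPM) and C1ql2 at 6.12 CPM, 21 counts, in non-Tg library 5 (others 0 to 1.67 CPM). In P301S astrocyte library 1, C1ql2 was at 1.41 CPM and Plk5 at 0.845 CPM, from 5 and 3 counts, with the other 4 libraries at 0. The effect of genotype on Pdzd2 was called as different between neurons and astrocytes, by a log2 difference of -2.34 in the test of that difference. This call was lost under 19 of the 31 alternatives run.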

How the results depend on the processing

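Depth sets the floor of 3 counts at 0.674 to 2.41 CPM. Astrocyte libraries were the deeper ones by group median, though the deepest single library was non-Tg neuron 8. In astrocytes 5 of 10 members fell under the filter, and C1ql2 and Plk5 were at 0 in most libraries. The number of genes called in neurons between genotypes, 1 in the fit used for the text, was 49 in DESeq2, 41 in limma voom, 38 without non-Tg libraries 5 and 8, 17 with no filter, 10 with a filter at 1 CPM, 10 with genes detected as a covariate, 0 with oligodendrocyte and microglial covariates, and 0 to 23 when 1 library was left out. Members called lower there, 0 in the text's fit, were 2 in DESeq2, 2 in limma voom, 2 without libraries 5 and 8, 1 with no filter, and 0 to 2 with 1 library left out. In astrocytes the 66 genes called became 1682 in 1 fit of all 25 libraries, 561 with no filter, 441 in DESeq2, 124 in limma voom, 15 with the sex term, 4 with oligodendrocyte and microglial covariates, 0 with genes detected, and 27 to 136 with 1 library left out. The 1 member called higher there was 0 with each of those 3 covariate fits, and 0 to 1 with 1 library left out. Between cell types in P301S, the 7420 genes called were 4925 in a fit of that genotype alone, and the 1 member called lower was 0 in DESeq2, 0 in limma voom, 0 with RLE scaling, 0 with no filter, 0 at 1 CPM, 0 in that genotype alone, and 0 to 1 with 1 library left out. For the interaction, the 56 genes called were 425 in DESeq2, 10 in limma voom, 12 without non-Tg neurons 5 and 8, and 9 to 522 with 1 library left out; its 1 member called lower was 0 at 1 CPM, 0 in limma voom, 0 without libraries 5 and 8, and 0 to 1 with 1 library left out. Counts of members higher in neurons stayed within 8 to 9 in P301S and at 10 in non-Tg under every alternative run.

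Some log2 fold changes in neurons changed sign, most but not all of them small. With the inhibitory covariate Calb1 was at 0.083, Dsp at 0.16, Prox1 at 0.040, Pdzd2 at -0.21, Gad1 at -0.073, Sst at -0.22 and Grik4 at 0.11; Gad1 and Sst belong to the list whose mean is that covariate, so their change of sign shows nothing further. With genes detected, Calb1 was at 0.091 and Lct at -0.011. With oligodendrocyte and microglial covariates, Fam163b was at 0.36 and Grik4 at 0.20, and with the sex term they were at 0.077 and 0.26; Grik4 was at 0.066 in limma voom. With 1 library left out, Calb1 ran from -0.12 to 0.079, Lct from -0.061 to 0.24, Pdzd2 from -0.067 to 0.14, Cpne4 from -0.018 to 0.080, Fam163b from -0.21 to 0.026, Fezf2 from -0.027 to 0.30 and Grik4 from -0.26 to 0.10. In astrocytes, C1ql3 was at 0.37 with genes detected, 0.80 with oligodendrocyte and microglial covariates and 0.052 with the sex term. C1ql3 and Stxbp6 in neurons kept their direction under all 25 alternatives, from -1.16 to -0.80 and from -1.17 to -0.76. The cause of these changes was not tested. No paired analysis was possible because the labels give no replicate numbers and tie no neuron library to an astrocyte library or a litter.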
